A study of Mus musculus with 14 samples.

Results

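The comparison described here is between sorted GFP-positive cells from mice that had seizures and from mice that had none, where the cells carried GFP alone. It rests on 7 of the 14 libraries of the series: 4 labelled CAG-GFP Pilo + CNO and 3 labelled CAG-GFP Sham + CNO, chosen by the names of their raw-count columns and described across all genes. All were made from the hippocampus of wild-type C57BL/6 mice at day 14, from 800 to 1000 live GFP-positive cells per library that the submitters describe as adult-born granule cells (abGCs). The CAG-GFP Pilo mice received scopolamine methyl nitrate (2 mg/kg) and terbutaline hemisulfate (2 mg/kg), then pilocarpine (300 mg/kg), a muscarinic agonist that starts status epilepticus, a state of unbroken seizure, which diazepam (10 mg/kg) ended after 3 h. The CAG-GFP Sham mice had no seizures. Mice of both groups also received clozapine-N-oxide (CNO), the ligand of the designer receptor (DREADD) that the remaining 7 libraries carry and these 7 do not, according to their labels. CAG is a promoter that is active in most cell types, so GFP driven by it does not by itself restrict a sort to neurons. The sources used here do not give how GFP was delivered, the ages of the mice, what the sham treatment contained or whether each library came from a separate animal. The p-values therefore reflect the spread among libraries, which may be technical.

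The dentate gyrus adds granule neurons throughout adult life from radial glia-like stem cells, which share many genes with astrocytes, through dividing progenitors and migrating neuroblasts that express doublecortin. Status epilepticus is known to change the number, position and dendrites of such cells, and to make astrocytes and microglia around them react. Oligodendrocyte precursors are the other main dividing cells of the adult hippocampus, and they lie among the granule cells.

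The labelled cell type was checked against its markers, in CPM, a gene's counts scaled by library total and normalisation factor. Dcx, which encodes doublecortin of neuroblasts and young neurons, stood at 48.8, 57.4, 20.7 and 0 CPM in CAG-GFP Pilo 1 to 4 and at 0, 6.57 and 1.68 CPM in CAG-GFP Sham 1 to 3. Prox1, the transcription factor of granule cells, stood at 221, 238, 32.2 and 0 CPM after seizures and at 12.7, 5.63 and 14.6 CPM in Sham. Neurod1, a transcription factor of young granule neurons, stood at 117, 166, 30.2 and 2.65 CPM after seizures and at 0.796, 0.938 and 0.576 CPM in Sham. Sham was lower than CAG-GFP Pilo 1, 2 and 3 for these 3 genes, and CAG-GFP Pilo 4 held no count of 2 of them. Other genes of the same lists were present in Sham: Stmn1, a microtubule regulator of young neurons, stood at 375, 293 and 338 CPM there, Ncam1, an adhesion molecule of neurons, at 114, 117 and 114 CPM, and Calb1, calbindin, at 67.8, 51.0 and 64.5 CPM. The summed immature neuron markers were 797, 728 and 830 CPM in Sham and 1029, 1546, 2203 and 1061 CPM after seizures. By contrast Slc1a2, the main glutamate transporter of astrocytes, stood at 8068, 8277 and 8352 CPM in Sham, and Aqp4, their water channel, at 1170, 1121 and 1178 CPM. The libraries are therefore called by their group labels below, not by a cell type. In such bulk libraries, fewer cells of a type and less RNA per cell cannot be told apart.

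The libraries also differed in ways that their labels do not give. Total counts were 27965232 to 28432365 in Sham, 10841454 and 10613291 in CAG-GFP Pilo 1 and 2, and 34358148 and 38614639 in CAG-GFP Pilo 3 and 4. The column names of CAG-GFP Pilo 3 and 4 follow the spelling used for Sham, and those of CAG-GFP Pilo 1 and 2 do not. Processed pseudogenes and other pseudogenes took 6.06% and 7.06% of counts in CAG-GFP Pilo 1 and 2 and 0.117% to 0.185% in the other 5 libraries. Transcripts of the mitochondrial genome took 11.6% to 12.7% in Sham, 12.7% and 13.9% in CAG-GFP Pilo 1 and 2, and 2.06% and 2.25% in CAG-GFP Pilo 3 and 4. CAG-GFP Pilo 4 had the most counts and the fewest genes detected, 9372 against 14599 to 20863 in the other 6. In CAG-GFP Pilo 4, 558 genes had no count although each of the other 6 libraries held at least 10 CPM of them, against 0 to 15 such genes in the other CAG-GFP Pilo libraries. Across genes, log2 CPM correlated at 0.863 to 0.868 between Sham libraries. It correlated at 0.738 between CAG-GFP Pilo 1 and 2, at 0.673 between CAG-GFP Pilo 3 and 4, and at 0.517 to 0.578 between these pairs. With the Sham libraries CAG-GFP Pilo 3 correlated at 0.772 to 0.796, above its values with the other seizure libraries. CAG-GFP Pilo 1 and 2 correlated with Sham at 0.570 to 0.598, and CAG-GFP Pilo 4 at 0.599 to 0.606. By this measure the seizure libraries did not group apart from Sham. Genes are not independent replicates, and no pair within a group agreed within sampling noise.

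Markers of glia and of other cells moved with the groups. Summed over 15 astrocyte markers, the level was 6830, 5530, 889 and 901 CPM in CAG-GFP Pilo 1 to 4 and 29780, 29790 and 31160 CPM in Sham. All 4 seizure libraries lay below all 3 Sham libraries, and CAG-GFP Pilo 3 and 4 lay lowest. For 11 oligodendrocyte precursor markers the sum was 1377, 1261, 254 and 1416 CPM after seizures and 32.7, 26.1 and 50.7 CPM in Sham. For 14 oligodendrocyte markers it was 36840, 38850, 1456 and 4436 CPM after seizures and 624, 624 and 721 CPM in Sham, so that CAG-GFP Pilo 1 and 2 lay far above CAG-GFP Pilo 3 and 4. Summed microglia markers were 12530, 10700, 6658 and 11070 CPM against 5731, 5824 and 5502 CPM, and no microglia gene passed the edgeR test below, 1 of 15 having an unadjusted p under 0.05 and 1 passing DESeq2. Blood cell markers summed to 18370 CPM in CAG-GFP Pilo 4, with 7271 CPM of the haemoglobin gene Hbb-bs, and to 12.04 to 195 CPM in the other 6 libraries. Ependymal and choroid plexus markers summed to 9681 CPM in CAG-GFP Pilo 3, with 7357 CPM of Ttr (transthyretin, made by the choroid plexus), to 379 to 539 CPM in the other seizure libraries and to 2375 to 3122 CPM in Sham. Mature granule cell markers summed to 2071, 2068, 2812 and 1063 CPM after seizures and to 867, 727 and 632 CPM in Sham. The part that these differences in cell markers have in the changes of single genes was not tested.

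**Figure D1:**
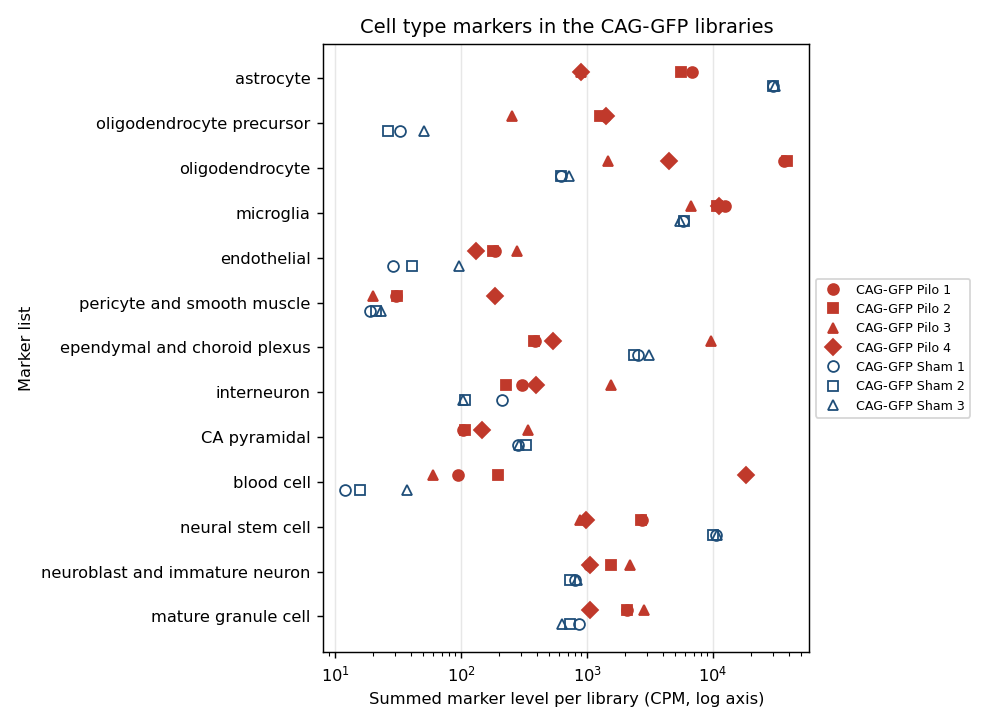
Summed level of each cell type's markers in each of the 7 CAG-GFP libraries, on a log axis in CPM, with filled red symbols for CAG-GFP Pilo and open blue symbols for CAG-GFP Sham. Astrocyte markers lay lower in every seizure library (889 to 6830 CPM) than in every Sham library (29780 to 31160 CPM), and oligodendrocyte precursor markers lay higher (254 to 1416 against 26.1 to 50.7 CPM).

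The seizure comparison was tested for 18676 genes with edgeR's quasi-likelihood test and Benjamini-Hochberg adjustment. It called 45 genes at an adjusted p under 0.05, which is 0.241% of those tested. Of these, 13 were higher after seizures (0.0696% of genes tested) and 32 were lower (0.171%). With library totals in place of normalisation factors it called 17 higher and 15 lower. The Sham libraries had normalisation factors of 0.683 to 0.713 and the seizure libraries of 0.982 to 1.39, and the median log2 change over all genes was 0.41, or 1.08 with library totals only and 0.25 with upper-quartile factors. All 45 genes kept their sign under each scaling, under each other setting tried and with each library left out, and for all 45 the groups did not overlap. Because the 45 were chosen for large changes in these same libraries, neither result is separate support. Among all genes tested, all seizure libraries lay above all Sham libraries for 6.55% and below them for 12.2%. The lower genes had a median log2 change of -3.95 and the higher ones of 8.51, which stayed at 8.51 with the 3 genes that had no count in Sham set to the bound of 3 counts over the Sham group. Over all 18676 genes tested, 2871 had an unadjusted p under 0.05. Limma voom called 777, 85 of them higher and 692 lower. DESeq2 called 2221, 1722 of them higher and 499 lower, so the main direction of the calls depended on the tool. A positive change was found for 58.7% of all genes, or 71.9% with library totals only. The counts given for each gene list below are to be read beside these.

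Few calls held without 1 of the libraries. The test called 3, 8, 9 and 15 genes without CAG-GFP Pilo 1, 2, 3 and 4 in turn, and 3 genes each without CAG-GFP Sham 1, 2 or 3. Gstm1, Mdk and Scg3 were the only genes called in all 7 of these repeats. A further fit took only libraries whose column names share their spelling: CAG-GFP Pilo 3 and 4, CAG-GFP Sham, and DREADD Sham 1 and 2. The DREADD libraries entered its estimate of the spread. It called 471 genes, 43 of the 45 among them. With that spelling as a covariate in all libraries, 89 genes were called, 40 of the 45 among them. Both fits reuse libraries from which the 45 were chosen, so these repeats are not independent support.

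**Figure D2:**
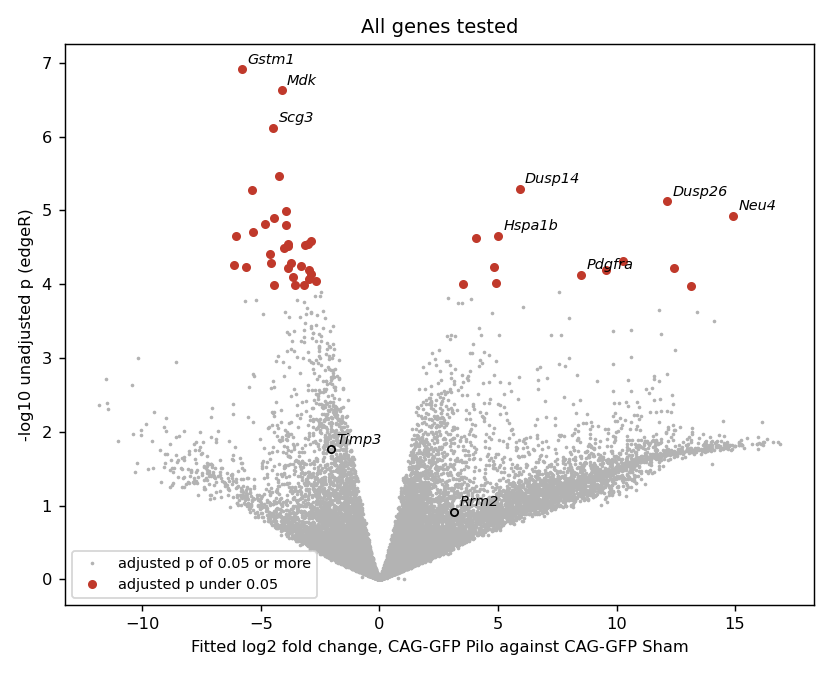
Fitted log2 change after seizures (horizontal) against -log10 of the unadjusted edgeR p (vertical) for each of the 18676 genes tested, with the 45 called genes in red and Rrm2 and Timp3 circled. Gstm1, Mdk and Scg3 lie highest on the lower side and Dusp14, Dusp26 and Neu4 on the higher side.

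Of the 45 called genes, 41 carried a full gene name, 30 of them lower and 11 higher. The other 4 were predicted genes or clones, each overlapping a better-known gene. 1700071M16Rik lies in Pla2g7, Gm28221 in Ncald and Gm20481 in Hspa1a. 4933431E20Rik (chromosome 3, 107888850 to 107896213) overlaps only the start of Gstm5, at 107895821. The sources used here do not give the strand setting of the counting, so reads from the shared stretch of each pair cannot be told apart. In all, 17 called genes overlapped another tested gene and 8 overlapped another called one.

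**Figure D3:**
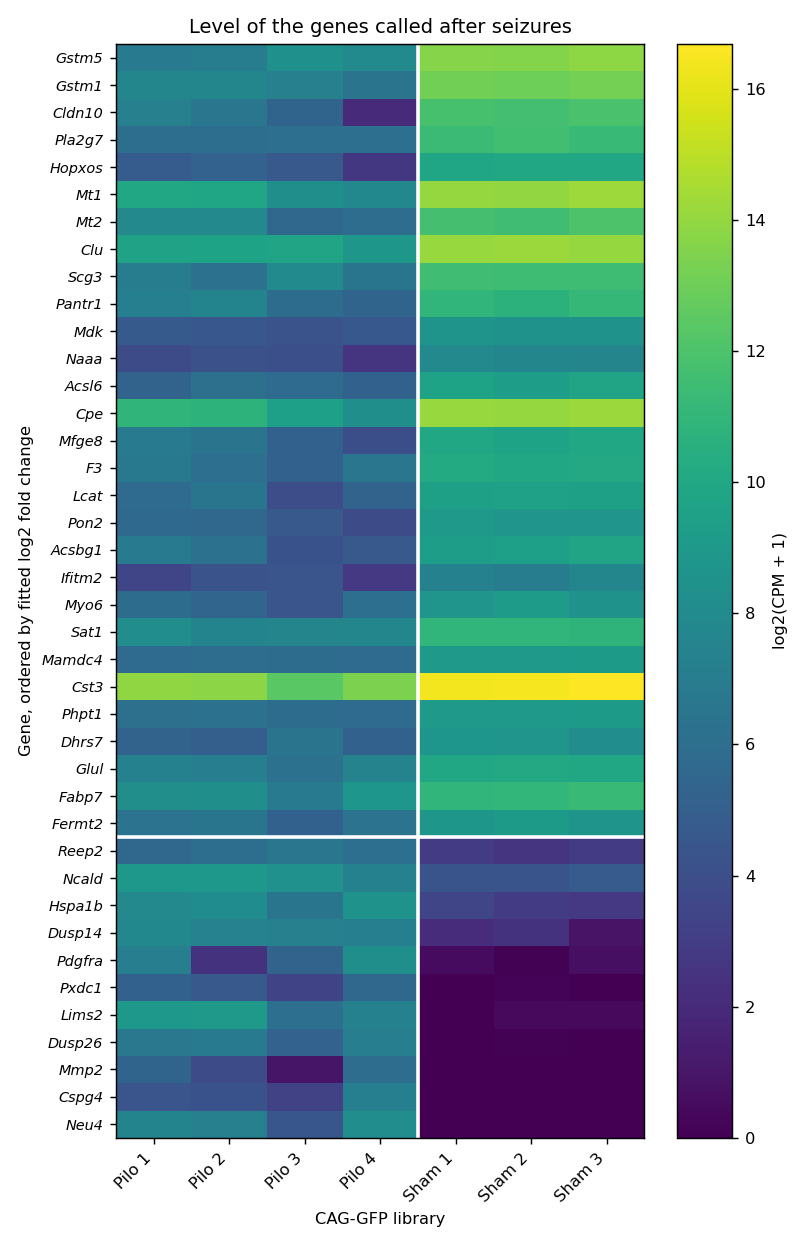
Level of 40 of the named genes called after seizures, as log2(CPM + 1) in colour, with 1 row per gene and 1 column per CAG-GFP library. The 29 genes above the white line are darker in all 4 seizure libraries than in the 3 Sham libraries, and the 11 below it are brighter.

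Genes for metal binding and glutathione conjugation were among the most strongly lowered. Metallothioneins are small cysteine-rich proteins that bind zinc and copper, and mu-class glutathione transferases join glutathione to reactive compounds. Both are abundant in astrocytes. Gstm1 (chromosome 3, 108012255 to 108017973, minus strand, GRCm38) stood at 203, 199, 152 and 86.0 CPM in CAG-GFP Pilo 1 to 4 and at 8919, 8367 and 9495 CPM in Sham. Every seizure library was far below every Sham library, a log2 change of -5.80 ± 0.61 (SE) with an adjusted p of 0.0022, the smallest of all genes and equal to that of Mdk. Gstm5 (chromosome 3, 107895821 to 107898686, plus strand) stood at 113, 127, 334 and 241 CPM against 12910, 12340 and 14880 CPM, a log2 change of -6.04 ± 0.99 (adjusted p = 0.027). The members of this family are similar in sequence, so reads could be split between them by the counting.

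Mt1 and Mt2 fell together. Mt1 stood at 1012, 884, 320 and 215 CPM after seizures and at 16940, 16000 and 19360 CPM in Sham (log2 change -4.84 ± 0.77, adjusted p = 0.024). Mt2 stood at 232, 230, 47.5 and 61.7 CPM against 3423, 3089 and 4115 CPM (-4.63 ± 0.80, adjusted p = 0.032). In both genes CAG-GFP Pilo 3 and 4 lay below CAG-GFP Pilo 1 and 2, and all 4 below Sham. Mt3, a brain metallothionein, stood at 307, 292, 216 and 152 CPM against 4738, 4502 and 5778 CPM and did not pass the test (adjusted p = 0.14). Mt1 and Mt2 lie side by side on chromosome 8, and their promoters are shown here because the metal response element, the site of the zinc-sensing factor MTF1, is the known shared control of the pair. The sequences are from RefSeq on GRCm38.p6, plus strand, 250 bases before to 50 after the gene start, at chr8:94178839-94179138 and chr8:94172368-94172667. Capitals mark matches to TGCACNC or TGCGCNC on either strand.
Mt1: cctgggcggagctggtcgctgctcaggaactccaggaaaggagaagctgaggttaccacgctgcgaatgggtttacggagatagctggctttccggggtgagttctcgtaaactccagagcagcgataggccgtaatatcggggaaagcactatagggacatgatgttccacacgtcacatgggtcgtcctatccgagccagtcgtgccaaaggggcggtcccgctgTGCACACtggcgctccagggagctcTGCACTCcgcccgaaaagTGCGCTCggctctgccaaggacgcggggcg
Mt2: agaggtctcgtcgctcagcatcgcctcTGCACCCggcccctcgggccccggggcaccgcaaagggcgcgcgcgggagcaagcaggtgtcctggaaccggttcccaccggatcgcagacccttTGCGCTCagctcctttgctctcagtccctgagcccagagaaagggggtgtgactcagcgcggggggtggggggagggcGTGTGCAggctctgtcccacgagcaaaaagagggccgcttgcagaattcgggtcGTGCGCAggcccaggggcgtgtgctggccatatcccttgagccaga
The Mt1 window held 3 matches and the Mt2 window 4, and 25.7% of 32841 RefSeq promoters of this length held at least 1. A match is a description of these letters and not evidence of binding.

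Of the 26 metallothionein and glutathione genes on the list, all of them tested, 23 had a negative and 3 a positive log2 change. The median was -2.34, and edgeR called 4 lower (Mt1, Mt2, Gstm1 and Gstm5), with 11 called by limma voom and 8 by DESeq2. For 18 of them all seizure libraries lay below Sham. Prdx6, a peroxiredoxin of astrocytes, stood at 1487, 1462, 315 and 358 CPM against 4940, 5272 and 5569 CPM without passing the test. Slc7a11, the cystine transporter that feeds glutathione synthesis, stood at 50.3, 3.32, 7.30 and 13.6 CPM against 265, 255 and 263 CPM, also without passing. Gpx1, a glutathione peroxidase, had 610, 816, 296 and 287 CPM against 215, 303 and 221 CPM, so that its groups overlapped. Gpx4, which repairs oxidised lipids, stood at 11.3 and 23.6 CPM in CAG-GFP Pilo 1 and 2, at 598 and 402 CPM in CAG-GFP Pilo 3 and 4, and at 1155, 1079 and 1173 CPM in Sham, a split that follows the pseudogene share given above.

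Several of the lowered genes encode secreted proteins, a grouping made after the calls were seen and on none of the lists. Mdk (chromosome 2, 91929805 to 91932297, minus strand) encodes midkine, a heparin-binding growth factor made by neural precursors and reactive cells. It stood at 24.9, 22.02, 18.4 and 22.8 CPM after seizures and at 404, 385 and 370 CPM in Sham, with a narrow spread in both groups, and its log2 change was -4.13 ± 0.46 (adjusted p = 0.0022). Scg3 (chromosome 9, 75643189 to 75684056, minus strand) encodes secretogranin III, which sorts cargo into secretory granules. It stood at 131, 75.3, 238 and 88.9 CPM against 2982, 2958 and 2953 CPM (log2 change -4.47 ± 0.55, adjusted p = 0.0047). Cpe, which encodes carboxypeptidase E and trims peptide hormones in those granules, stood at 1928, 1741, 678 and 310 CPM against 17440, 17200 and 18760 CPM (-3.93 ± 0.62, adjusted p = 0.024). Both granule genes were thus lower in every seizure library, in neither case with overlap.

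Cst3, which encodes the protease inhibitor cystatin C, had the highest level per kilobase of exon of all named genes in Sham, 73450 CPM per kilobase against 9027 after seizures. In CPM it stood at 15270, 14360, 5351 and 10730 against 85350, 88490 and 105100 (log2 change -3.02 ± 0.51, adjusted p = 0.027). Clu, the lipid-carrying chaperone clusterin, stood at 796, 805, 875 and 456 CPM against 17290, 18080 and 16580 CPM (-4.56 ± 0.81, adjusted p = 0.036). Mfge8, a bridging protein for the uptake of dying cells, had 122, 84.6, 34.9 and 15.4 CPM against 974, 825 and 1018 CPM (-3.87 ± 0.70). F3, which encodes tissue factor, the starter of blood clotting and an astrocyte product in brain, had 107, 67.7, 34.6 and 92.0 CPM against 1169, 1029 and 1059 CPM (-3.85 ± 0.65).

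The list of lipid carriers and acyl-CoA enzymes held 6 of the 32 lowered genes, and Lcat, Naaa and Pon2, described with them here, were not on it. Pla2g7 encodes a secreted phospholipase that breaks down platelet-activating factor. It stood at 65.2, 64.8, 68.7 and 67.0 CPM in the seizure libraries, the smallest SD relative to the mean among the named genes called, and at 2660, 3212 and 2526 CPM in Sham (log2 change -5.40 ± 0.78, adjusted p = 0.017). The acyl-CoA synthetases Acsl6 and Acsbg1, which activate fatty acids, also fell. Acsl6 had 38.2, 70.2, 55.7 and 35.1 CPM against 820, 665 and 844 CPM (-3.96 ± 0.60), and Acsbg1, an astrocyte marker, had 115, 78.8, 17.0 and 24.3 CPM against 639, 698 and 856 CPM (-3.64 ± 0.67). Fabp7, a lipid-binding protein of astrocytes and radial glia, had 299, 313, 120 and 441 CPM against 2001, 2069 and 2479 CPM (-2.90 ± 0.53, adjusted p = 0.039). Lcat, which forms cholesterol esters on lipoproteins, had 56.9, 89.3, 14.5 and 38.7 CPM against 708, 738 and 698 CPM (-3.84 ± 0.64). Naaa, an acid amidase for lipid amides, had 13.8, 16.9, 16.1 and 4.92 CPM against 234, 204 and 188 CPM (-4.01 ± 0.68), and Pon2, a paraoxonase, had 51.3, 46.4, 24.6 and 13.3 CPM against 519, 411 and 414 CPM (-3.73 ± 0.66).

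On the list of 20 lipid carriers and acyl-CoA enzymes, which held also the peptide-processing Cpe, 19 had a negative log2 change, and edgeR called 6 lower: Clu, Fabp7, Acsl6, Acsbg1, Pla2g7 and Cpe. Limma voom called 13 and DESeq2 10 of the list. The median was -3.14, and for 18 genes the seizure libraries lay wholly below Sham. Dbi, the acyl-CoA binding protein, stood at 751, 836, 462 and 1115 CPM against 10280, 9801 and 12940 CPM without passing the test. Apoe, the main lipoprotein of astrocytes and microglia, behaved differently in its values: 15690, 12030, 2471 and 1337 CPM after seizures and 20770, 9955 and 9591 CPM in Sham, with overlapping groups. Apod, a lipocalin, was the only list member with a positive change, at 180, 91.4, 51.5 and 87.2 CPM against 32.3, 45.6 and 22.1 CPM. Of 21 cholesterol synthesis genes, 17 had a negative change, with a median of -1.31, and none was called by edgeR, with 6 at an unadjusted p under 0.05, 6 called by limma voom and 4 by DESeq2. Msmo1, a sterol oxidase, came closest with 394, 399, 196 and 255 CPM against 1176, 1402 and 1060 CPM (adjusted p = 0.090).

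A junction protein and an enzyme typical of astrocytes fell as well. Cldn10, a claudin of tight junctions, had 155, 93.4, 40.3 and 2.94 CPM after seizures and 3659, 3357 and 3743 CPM in Sham (log2 change -5.62 ± 1.01, adjusted p = 0.036). Glul, glutamine synthetase, which turns glutamate into glutamine in astrocytes, had 160, 142, 74.6 and 174 CPM against 972, 1063 and 1048 CPM (-2.90 ± 0.48, adjusted p = 0.027). Of the 15 astrocyte markers all had a negative change, with a median of -3.23 that was -5.90 within the libraries of like column names. Acsbg1 was the only call by edgeR, while 13 had an unadjusted p under 0.05 and limma voom called 13 and DESeq2 8. For 14 of them the seizure libraries lay wholly below Sham. Slc1a3, a glutamate transporter, came close with 757, 344, 88.9 and 72.1 CPM against 4693, 4482 and 4922 CPM (adjusted p = 0.094). Gfap, the filament protein of reactive astrocytes and of radial glia-like stem cells, was the exception, with 976, 720, 91.0 and 63.1 CPM against 709, 589 and 699 CPM. CAG-GFP Pilo 1 and 2 lay above Sham for Gfap and CAG-GFP Pilo 3 and 4 lay below it.

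Among the remaining lowered genes were a pair of noncoding transcripts and several enzymes. Pantr1, a long noncoding RNA next to the neural transcription factor gene Pou3f3, stood at 145, 182, 57.9 and 41.3 CPM against 2011, 1722 and 2224 CPM (log2 change -4.22 ± 0.59, adjusted p = 0.016). Hopxos, which overlaps the stem cell marker Hopx on the other strand, had 28.5, 36.4, 23.7 and 5.40 CPM against 914, 994 and 969 CPM (-5.35 ± 0.87), and Hopx itself had 284, 399, 36.5 and 8.96 CPM against 1457, 1480 and 1524 CPM without passing the test. Sat1, which acetylates polyamines for export, had 285, 182, 194 and 205 CPM against 1991, 1985 and 1874 CPM (-3.17 ± 0.60). Ifitm2, an interferon-induced membrane protein, Myo6, an actin motor, Fermt2, an integrin adaptor, and Dhrs7, a dehydrogenase, also fell, with log2 changes of -3.58, -3.30, -2.68 and -2.98. Mamdc4 and Phpt1 overlap on the same strand of chromosome 2 and had nearly the same values, 55.7 to 62.0 and 55.7 to 76.5 CPM after seizures against 498 to 545 and 501 to 547 CPM, so reads of the pair cannot be told apart and both calls are uncertain.

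The oligodendrocyte precursor list held 4 of the 13 genes that rose, the most on any list. Neu4 (chromosome 1, 94020451 to 94028334, plus strand), a sialidase expressed along the oligodendrocyte lineage, stood at 186, 152, 21.4 and 294 CPM after seizures and had no count in Sham. With Sham set to 3 counts over the group it was at least 1433-fold higher without CAG-GFP Pilo 4 (adjusted p = 0.024 with all libraries), against 3460-fold in the summed counts of all 4 and 3236-fold with libraries weighted equally. Cspg4, the NG2 proteoglycan of precursors and pericytes, had 20.0, 17.1, 8.32 and 147 CPM and no count in Sham (adjusted p = 0.044). By the same rule it was at least 235-fold higher without CAG-GFP Pilo 4, 1470-fold in all summed counts and 954-fold with equal weights. Pdgfra (chromosome 5, 75152292 to 75198215, plus strand), the growth factor receptor that defines these precursors, had 140, 4.42, 38.5 and 322 CPM against 0.398, 0.0494 and 0.576 CPM (log2 change 8.51 ± 1.57, adjusted p = 0.039). Lims2, an adaptor of integrin signalling, had 478, 497, 68.4 and 162 CPM against 0, 0.346 and 0.367 CPM (10.28 ± 1.81, adjusted p = 0.036), and it overlaps Gpr17, a receptor of committed precursors, on the opposite strand. All 4 seizure libraries lay above Sham for each of the 4 genes, with CAG-GFP Pilo 2 low for Pdgfra.

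All 11 precursor markers tested, of 12 listed, had a positive change, with a median of 5.65 (9.11 without CAG-GFP Sham 3), and for 9 the groups did not overlap. At an unadjusted p under 0.05 there were 10, and edgeR called 4, limma voom 3 and DESeq2 9. Sox10, the lineage's transcription factor, stood at 95.6, 176, 11.5 and 50.5 CPM against 0.0497, 0 and 0.210 CPM without passing the test. Olig1 and Olig2 are the remaining pair of factors, and their groups overlapped, at 26.2 to 301 against 23.7 to 31.4 CPM and at 4.44 to 49.9 against 0.691 to 8.86 CPM. All 14 markers of mature oligodendrocytes had a positive change too, with a median of 4.42 (1.74 within the libraries of like column names), and 9 had no overlap, but none was called by edgeR. At an unadjusted p under 0.05 there were 13, and limma voom called 0 and DESeq2 13. Mbp, myelin basic protein, stood at 16050, 16390, 258 and 1170 CPM against 60.8, 47.7 and 59.5 CPM (adjusted p = 0.095), so CAG-GFP Pilo 1 and 2 differed from CAG-GFP Pilo 3 and 4 by more than CAG-GFP Pilo 3 differed from Sham.

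Dual-specificity phosphatases, which remove phosphate from MAP kinases and related proteins, gave 2 of the higher calls by edgeR, and limma voom and DESeq2 called 2 genes each on their list. Dusp14 (chromosome 11, 84048041 to 84069261, minus strand) stood at 220, 165, 155 and 148 CPM after seizures and at 3.28, 4.44 and 0.839 CPM in Sham, a log2 change of 5.91 ± 0.85 (adjusted p = 0.017). The seizure libraries were close to each other here, CAG-GFP Pilo 4 included. Dusp26 (chromosome 8, 31089471 to 31097047, plus strand), a phosphatase of neural tissue, had 102, 114, 37.0 and 142 CPM, against a total of 1 count in the 3 Sham libraries (adjusted p = 0.020). Of the 21 genes for these phosphatases and for other MAP kinase feedback, 11 had a positive and 10 a negative change, with a median of 0.66 that was -0.31 within the libraries of like column names, -0.03 without CAG-GFP Pilo 1 and 1.06 without CAG-GFP Sham 1. Spred1, a brake on Ras signalling, stood at 37.3, 37.1, 39.4 and 41.4 CPM against 114, 156 and 100 CPM without passing the test.

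The heat shock protein gene Hspa1b rose. It encodes the inducible chaperone HSP70, which refolds damaged proteins, and stood at 235, 272, 90.5 and 365 CPM after seizures and at 10.0, 6.71 and 5.76 CPM in Sham (log2 change 5.003 ± 0.82, adjusted p = 0.027). Hspa1a, its near-identical neighbour, had 208, 122, 114 and 110 CPM against 3.03, 9.78 and 9.96 CPM and did not pass (adjusted p = 0.092). The predicted gene Gm20481, which overlaps Hspa1a on the other strand, did pass with 101, 65.4, 42.1 and 44.3 CPM against 1.14, 2.22 and 2.99 CPM. Since the copies share most of their sequence, reads could be split between them. Their promoters show how close the pair is, on GRCm38.p6 at chr17:34972107-34972406 and chr17:34959189-34959488, minus strand, again from RefSeq. Capitals mark the heat shock element core, searched as GAANNTTC or TTCNNGAA.
Hspa1a: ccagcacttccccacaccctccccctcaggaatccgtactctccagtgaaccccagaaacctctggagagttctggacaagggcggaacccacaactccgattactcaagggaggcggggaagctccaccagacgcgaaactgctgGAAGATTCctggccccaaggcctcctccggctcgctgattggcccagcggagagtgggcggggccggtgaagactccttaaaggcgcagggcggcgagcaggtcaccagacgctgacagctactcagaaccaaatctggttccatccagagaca
Hspa1b: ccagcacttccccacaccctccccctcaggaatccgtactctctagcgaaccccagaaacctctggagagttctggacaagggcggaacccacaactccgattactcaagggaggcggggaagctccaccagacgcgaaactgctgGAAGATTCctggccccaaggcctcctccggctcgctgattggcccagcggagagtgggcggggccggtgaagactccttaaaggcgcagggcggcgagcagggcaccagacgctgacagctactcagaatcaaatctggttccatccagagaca
The windows had the same base at 296 of 300 positions (98.7%), and each held 1 match. Of the 32841 promoters, 15.1% held at least 1.

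The other chaperones did not share this pattern in their values. Of the 18 on the list 10 had a positive and 8 a negative change, with a median of 0.05 that was -0.16 with upper-quartile factors and -0.47 without CAG-GFP Pilo 3. Hspa1b was the only call by edgeR, while 3 had an unadjusted p under 0.05 and limma voom called 1 and DESeq2 3. Hspe1, the mitochondrial co-chaperone, stood at 81.5, 79.2, 138 and 123 CPM against 606, 580 and 742 CPM without passing. Hspa8, the constitutive HSP70, stood at 112 and 123 CPM in CAG-GFP Pilo 1 and 2, at 3719 and 2981 CPM in CAG-GFP Pilo 3 and 4, and at 2460, 2206 and 2420 CPM in Sham. Hsp90aa1, an inducible HSP90, split the same way, with 24.3 and 36.5, then 1511 and 914, and 1196 to 1409 CPM. CAG-GFP Pilo 1 and 2 also had the high pseudogene shares, and the part of that in these values was not tested.

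A further 4 named genes rose. Ncald, a calcium sensor of neurons, stood at 480, 469, 353 and 163 CPM against 18.9, 19.2 and 26.4 CPM (log2 change 4.09 ± 0.67, adjusted p = 0.027). Reep2, a shaper of the endoplasmic reticulum in neurons, had 49.5, 65.7, 94.4 and 66.4 CPM against 6.86, 4.89 and 6.45 CPM (3.51 ± 0.66, adjusted p = 0.044). Mmp2, a matrix metalloproteinase that cuts basement membrane collagen, had 41.3, 12.8, 0.913 and 60.1 CPM and no count in Sham (adjusted p = 0.036). It was at least 196-fold higher without CAG-GFP Pilo 4, 656-fold in all summed counts and 570.5-fold with equal weights. Mmp2 was the only named call that did not return within the libraries of like column names (adjusted p = 0.10). Pxdc1 had 34.5, 24.0, 9.53 and 49.0 CPM, against a total of 2 counts in Sham (adjusted p = 0.036).

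Other genes were present in all seizure libraries and had no count in Sham without passing the test. Including Neu4 and Cspg4, 9 genes had at least 5 CPM in each seizure library and none in Sham. They included C1ql2, a synapse organiser of mossy fibres, with 83.3, 98.3, 36.8 and 8.601 CPM (adjusted p = 0.070), and Nxph1, a neurexin ligand, with 75.7, 33.0, 8.49 and 259 CPM (adjusted p = 0.080). C1ql2 was at least 536-fold higher without CAG-GFP Pilo 2, 669-fold in all summed counts and 1125-fold with equal weights, and Nxph1 at least 480.4-fold without CAG-GFP Pilo 4, 2630-fold in all summed counts and 1862-fold with equal weights. These 2 were singled out after their values were seen, Nxph1 outside the rule for named genes. In the other direction 5 genes had no count in any seizure library and at least 5 CPM in each Sham library, among them Angptl4, an inhibitor of lipoprotein lipase, at 15.7, 15.3 and 16.4 CPM.

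Neuronal genes lay mostly higher after seizures, but no gene on the lists of granule cell, immature neuron, synaptic vesicle, channel or receptor genes passed the edgeR test. Of 25 mature granule cell markers tested, 22 had a positive change, with a median of 2.53, against 58.7% positive and a median of 0.41 over all genes, and for 10 the seizure libraries lay wholly above Sham. At an unadjusted p under 0.05 there were 9 of them, with 3 called by limma voom and 7 by DESeq2. C1ql3, a relative of C1ql2, stood at 90.5, 123, 58.8 and 69.6 CPM against 3.28, 4.44 and 1.83 CPM (adjusted p = 0.070). Calb1, the calcium buffer calbindin of mature granule cells, stood at 217, 173, 767 and 252 CPM against 67.8, 51.0 and 64.5 CPM. Of 20 immature neuron markers tested, 16 had a positive change (median 1.83), 6 had seizure libraries wholly above Sham and 2 an unadjusted p under 0.05, with 0 called by limma voom and 1 by DESeq2. All 27 synaptic vesicle genes had a positive change (median 1.26), 13 of them without overlap and 4 with an unadjusted p under 0.05, and limma voom called 0 and DESeq2 4. Vamp2, the vesicle SNARE, stood at 88.5, 108, 99.3 and 38.6 CPM against 23.7, 17.5 and 16.2 CPM (adjusted p = 0.22).

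Most genes of the channel and receptor lists had a positive change, as did 58.7% of all genes tested, whose median was 0.41. Voltage-gated and HCN channels had 30 positive changes of 32 tested (median 1.61), glutamate receptors 17 of 23 (median 1.32, or 0.52 without CAG-GFP Pilo 3) and genes of GABA receptors and chloride transport 15 of 21 (median 1.001). At an unadjusted p under 0.05 there were 1, 2 and 6 on these lists, and limma voom called 0, 2 and 4 and DESeq2 0, 1 and 5. Gabrg1, a GABA receptor subunit, had 24.4, 18.0, 11.99 and 0 CPM against 230, 171 and 207 CPM, and Grin2c, an NMDA receptor subunit, had 16.6, 8.11, 2.71 and 0 CPM against 55.7, 67.0 and 74.7 CPM, neither past the test.

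Neural stem cell markers lay lower in the main, with 18 of 22 tested negative and a median of -2.08, and Fabp7 was the only call by edgeR, while 10 had an unadjusted p under 0.05 and limma voom called 9 and DESeq2 7. Id2, an inhibitor of differentiation factors, stood at 994, 707, 439 and 338 CPM against 3571, 3187 and 3049 CPM (adjusted p = 0.070). Most of these markers are also astrocyte genes, and they lay with the astrocyte sums given above.

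No gene of the cell cycle lists was called by edgeR. At an unadjusted p under 0.05 there were 5 mitosis and 5 DNA replication genes, while limma voom called 2 and 1 and DESeq2 8 and 5 on these lists. Among all 18676 genes tested 2871 had such a p, and limma voom called 777 and DESeq2 2221. Of 30 mitosis genes, 28 had a positive change (median 4.11, or 4.04 with genes at 0 in a group set to their bound). The median was 1.29 within the libraries of like column names, 2.54 with that spelling as a covariate and 6.16 without CAG-GFP Sham 1, and for 5 of the 30 the seizure libraries lay wholly above Sham. Birc5, survivin of the dividing cell, stood at 29.7, 63.3, 11.9 and 21.7 CPM, against 0, 0.0494 and 0 CPM in Sham (adjusted p = 0.17). Top2a, which untangles chromosomes, had 16.6, 24.1 and 12.6 CPM in CAG-GFP Pilo 1 to 3 and no count in CAG-GFP Pilo 4 or in Sham. Of 30 DNA replication genes 20 had a positive change, with a median of 0.86, against 58.7% and 0.41 over all genes. Mcm6, of the replicative helicase, stood at 14.1, 46.4, 27.8 and 25.6 CPM against 2.04, 0 and 0 CPM (adjusted p = 0.27).

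The series title names Rrm2, the small subunit of ribonucleotide reductase, and Timp3, an inhibitor of metalloproteinases. Rrm2 stood at 22.4, 15.9, 17.3 and 99.8 CPM after seizures and at 1.99, 4.64 and 6.66 CPM in Sham (log2 change 3.13 ± 1.90, adjusted p = 0.42), and Timp3 at 74.0, 28.8, 21.1 and 45.8 CPM against 179, 173 and 177 CPM (-2.06 ± 0.77, adjusted p = 0.28).

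Immediate early genes, the first that neuronal activity induces, were mixed, while most later activity-regulated genes had a positive change. Over all genes 58.7% had a positive change and the median was 0.41. Of 25 immediate early genes 17 had a positive and 8 a negative change, none was called by edgeR (6 at an unadjusted p under 0.05, 1 called by limma voom and 4 by DESeq2), and the median of 1.28 (1.06 with genes at 0 set to their bound) was -0.49 within the libraries of like column names, 0.43 without CAG-GFP Pilo 1 and 0.84 without CAG-GFP Pilo 3. Junb stood at 1264, 910, 248 and 408 CPM against 260, 74.4 and 66.7 CPM (adjusted p = 0.28), with overlap through CAG-GFP Pilo 3 and Sham 1. Fosb, a member of the same AP-1 family that builds up after repeated seizures, stood at 12.9, 23.0, 6.81 and 7.03 CPM against 70.1, 49.1 and 49.2 CPM (adjusted p = 0.28), lower in all 4 libraries. Arc, the synaptic plasticity gene, had 11.2, 0, 28.3 and 8.66 CPM against 0, 0 and 0.262 CPM. Of the 25 later activity-regulated genes and neuropeptides tested, 23 had a positive change (median 1.98, or 1.03 without CAG-GFP Pilo 3) and 8 lay wholly above Sham. Scg3, which fell, was the only call by edgeR, while 4 had an unadjusted p under 0.05 and limma voom called 2 and DESeq2 4. Nrn1, neuritin, stood at 190, 230, 392.4 and 248 CPM against 49.5, 40.7 and 38.0 CPM (adjusted p = 0.25).

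Mitochondrial and nuclear genes of respiration lay lower, again without calls by edgeR. Of the nuclear ones 12 had an unadjusted p under 0.05, with 13 called by limma voom and 3 by DESeq2, and of the mitochondrial ones 3, with 6 and 1 called. Of 32 nuclear genes for oxidative phosphorylation 29 had a negative change (median -1.62), and for 22 the seizure libraries lay wholly below Sham. Ndufa2, of complex I, stood at 246, 242, 212 and 241 CPM against 1080, 961 and 1362 CPM (adjusted p = 0.26). Of 12 mitochondrially encoded genes tested, 11 had a negative change (median -1.62, or -3.27 within the libraries of like column names), with CAG-GFP Pilo 3 and 4 lowest: mt-Co1 stood at 9159, 10330, 2527 and 2405 CPM against 39160, 39770 and 38390 CPM (adjusted p = 0.23). With library totals only, the median was -1.04 for the mitochondrially encoded genes and -0.89 for the nuclear ones. As a share of all counts, mitochondrial transcripts were not lower in CAG-GFP Pilo 1 and 2 (12.7% and 13.9%) than in Sham (11.6% to 12.7%).

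Matrix, inflammation and stress lists were mixed, beside 58.7% positive changes and a median of 0.41 over all genes. Of 32 matrix and metalloproteinase genes tested, 17 had a positive and 15 a negative change, with a median of 0.12 that was -0.04 with upper-quartile factors and -0.22 without CAG-GFP Pilo 3. Mmp2 was the only call by edgeR, while 11 had an unadjusted p under 0.05 and limma voom called 6 and DESeq2 8, and Sparcl1, a matricellular protein of astrocytes, came closest on the lower side with 1376, 1297, 1065 and 407 CPM against 9473, 9668 and 8830 CPM (adjusted p = 0.059). The 22 reactive glia genes divided into 11 positive and 11 negative, with a median of 0.10 that was -0.09 with upper-quartile factors and -0.13 to 0.28 with 1 library left out. EdgeR called 0 of them, with 1 at an unadjusted p under 0.05, 3 called by limma voom and 2 by DESeq2. Osmr, the oncostatin receptor of reactive astrocytes, stood at 0.0941, 0, 0.296 and 0 CPM against 37.1, 54.8 and 34.1 CPM (adjusted p = 0.14). Of 25 interferon and antigen presentation genes 0 had an unadjusted p under 0.05, and edgeR, limma voom and DESeq2 called 0. Of 23 p53 and integrated stress response genes tested, 17 had a positive change (median 0.47, or 0.89 without CAG-GFP Pilo 4 and 1.01 without CAG-GFP Sham 1) and edgeR called 0, with 5 at an unadjusted p under 0.05, 1 called by limma voom and 4 by DESeq2. Atf4, the main factor of that stress response, stood at 157, 129, 60.6 and 132 CPM against 19.1, 26.9 and 57.4 CPM (adjusted p = 0.28), and its target Ddit3 at 63.0, 71.0, 41.4 and 1.95 CPM against 163, 192 and 259 CPM (adjusted p = 0.28).

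**Figure D4:**
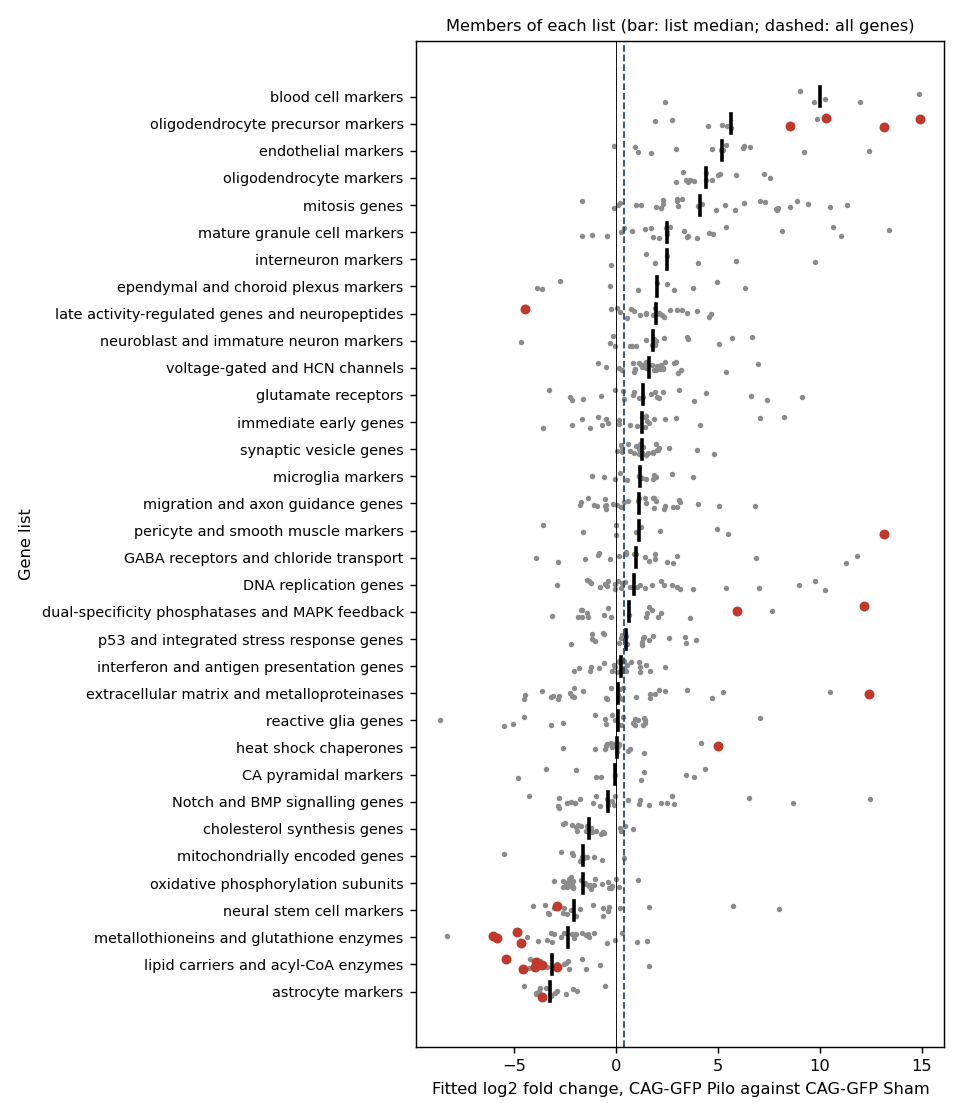
Fitted log2 change of each tested member of the 34 gene lists, 1 row per list, with called genes in red, the list median as a black bar and the median of all genes (0.41) as a dashed line. The astrocyte, lipid and metallothionein lists lie lowest (medians -3.23, -3.14 and -2.34), and the oligodendrocyte precursor list holds 4 of the 13 genes called higher.

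The 45 genes were also compared in the libraries whose cells carried the DREADD, which share no sample with the CAG-GFP libraries. They did enter the estimate of the spread by which the 45 were called. Column names of DREADD Sham 1 and 2 follow the spelling used for CAG-GFP Sham, and those of the other DREADD libraries do not. Pseudogenes took 4.33% to 7.82% of counts in DREADD Pilo, 0.200% and 0.167% in DREADD Sham 1 and 2, and 8.12% in DREADD Sham 3 and 4. Mitochondrial transcripts took 25.8% in DREADD Pilo 3. The part of these differences in the values below was not tested. Between DREADD Pilo and DREADD Sham 0 genes passed the edgeR test, with 967 at an unadjusted p under 0.05, 0 called by limma voom and 158 by DESeq2. The changes of the 45 genes ran there from -4.92 (1700071M16Rik) to 3.32 (Hspa1b), with a median log2 change of -0.32 for the 32 that fell in CAG-GFP libraries and of 0.11 for the 13 that rose, against 0.07 over all genes. The sign was the same for 23 of the 32 and 8 of the 13. Gstm1 changed by -1.63 in the DREADD libraries, Mdk by -1.42, Pla2g7 by -1.85, Dusp14 by 0.11, Pdgfra by -0.69 and Hspa1b by 3.32. The difference between the contrasts was tested as an interaction, and 0 of the 45 genes, or 0.0% of all genes, passed in edgeR. Over all genes 2191 had an unadjusted p under 0.05, and limma voom called 37 and DESeq2 1456. Among the 45 genes 42 had an unadjusted p under 0.05, a count that carries no weight because the genes were chosen on a change that enters the difference. The smallest adjusted p of the interaction among the named genes was 0.19, shared by Gstm1, Dusp14, Dusp26, Neu4, Cst3 and Naaa. The change was therefore not shown to differ with the DREADD, which does not show that it was alike.

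**Figure D5:**
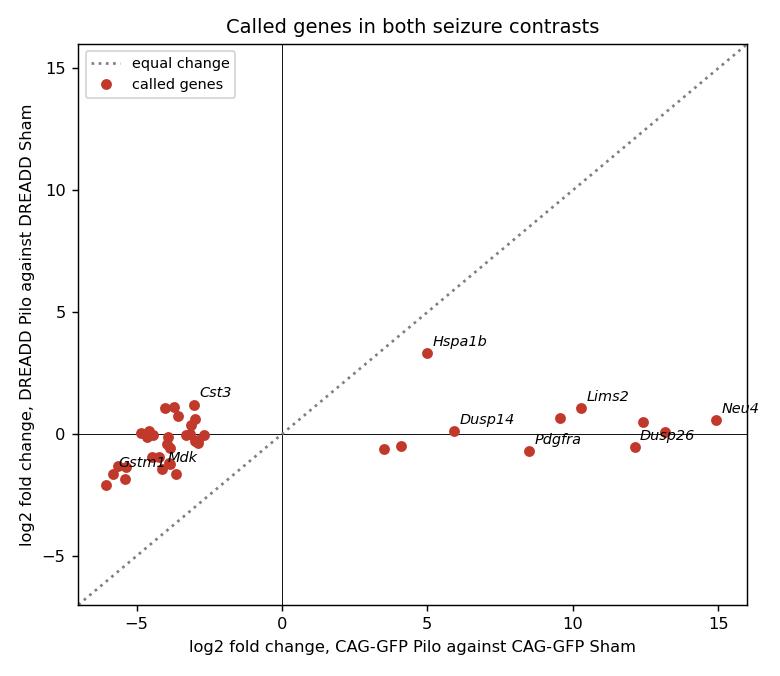
Fitted log2 change of the 41 named called genes in CAG-GFP libraries (horizontal) against that in DREADD libraries (vertical), with the dotted line marking equal change. The points lie between -2.10 and 3.32 on the vertical axis, and Hspa1b (5.003 and 3.32) lies nearest to the line among the genes that rose.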

How the data were processed

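Counts per gene came from 14 SMART-Seq v4 libraries, 7 of them in this comparison. The authors deposited a table of raw, unnormalised counts (all whole numbers) for 43346 genes. R 4.1.1, edgeR, featureCounts, Subread and Bowtie2 are named, with build hg38 and no stated role, per the submitters' processing notes. Every identifier in the table is a mouse Ensembl identifier, so that human build does not match it. The strand setting and the rule for reads with several matches were not given in the sources used here. Symbols and positions are from GENCODE M21 on GRCm38, which matched 42462 identifiers (98%). The GFP transgene was not analysed here.

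Libraries were grouped by title. Genes were tested in edgeR 4.0.16 (R 4.3.3) by 1 quasi-likelihood fit of all 14 libraries, 1 coefficient per group, with TMM factors, the filterByExpr filter (18676 genes left) and Benjamini-Hochberg adjustment at 0.05. The SE given with a log2 change is its absolute value divided by the square root of the test's F statistic. It therefore restates the test and is no separate estimate of precision. The common dispersion corresponded to a biological coefficient of variation of 1.75 in CAG-GFP Pilo, 1.02 in CAG-GFP Sham and 1.56 over the 14 libraries taken as 1 group. Levels are CPM from library total and TMM factor, and a group with no count was set to 3 counts over the group for a bound on counts summed over libraries, a floor that covers counting error only, as reads with no molecular identifier are not separate molecules. The fit was also run on simulated data, with no result reported here. Alternatives were other scaling and filters, limma 3.58.1 (voom), DESeq2 1.42.0, fewer libraries, and blocks or covariates, and scaling by library totals only was chosen after seeing the data, as were the bounds with equal weights or 1 library left out. Promoters were matched by symbol in a RefSeq table of GRCm38.p6.

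The comparison, the 34 gene lists (701 genes) and the tests were chosen with earlier results of these data known. The rule for named genes took each called gene with a full name and at least 5 CPM in the higher group, up to 3 members of each list with the smallest p at that level, Rrm2 and Timp3, and the 5 genes most abundant per kilobase of exon in each group. Other list members are given as examples of their list, chosen after their values were seen. A few named genes are not reported here.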

Additional observations from a re-analysis of the deposited data

Results flagged for a closer look

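Among the 4 CAG-GFP Pilo libraries, 21 of 166 sets of values (132 named genes and 34 list sums) had 1 library whose log2 CPM lay farther from the rest than Dixon's test allows at 95%. The test's nominal rate of 1 in 20 holds for independent, normally distributed sets. These sets share libraries and some genes, so their number was not set against chance. All involved CAG-GFP Pilo 4, 3 or 1, and groups of 3 libraries were not tested.

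CAG-GFP Pilo 4 lay lowest for Naaa (4.92 CPM), Clu (456 CPM) and Ddit3 (1.95 CPM), and at 0 CPM for Esam, an endothelial adhesion gene, Vim, an intermediate filament of glia, Top2a and Gabrg1. It lay highest for Hbb-bs (7271 CPM) and for Grik4, a kainate receptor subunit (32.2 CPM), and its summed migration and axon guidance genes were the lowest (781 CPM). This library also had the fewest genes detected.

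CAG-GFP Pilo 3 lay lowest for Fermt2 (34.7 CPM), the microglial receptor gene Cx3cr1 (68.3 CPM) and Ndufa2 (212 CPM), and in the summed oligodendrocyte precursor markers (254 CPM). It lay highest for Enpp2, autotaxin of oligodendrocytes and choroid plexus (2062 CPM), with 9681 CPM of summed ependymal and choroid plexus markers. It was also highest in summed synaptic vesicle genes (8388 CPM) and later activity-regulated genes (5009 CPM). Hs3st4 (1.14 CPM) and Aspg (1.48 CPM) had counts in it and none in the other 3.

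CAG-GFP Pilo 1 lay highest for Hspa1a, at 208 CPM.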

How the results depend on the processing

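The 45 calls kept their sign in all alternatives, which is no separate support because they were chosen on these same libraries. The number of calls moved. It was 168 with the 7 CAG-GFP libraries alone, 89 with the spelling of column names as a covariate, 471 within the libraries of like names, 777 with limma voom, 2221 with DESeq2 and 0 with the Sham libraries summed, where 434 genes had an unadjusted p under 0.05. It ranged from 3 to 15 with 1 library left out, 3 being the value without CAG-GFP Pilo 1 or any 1 Sham library and 15 that without CAG-GFP Pilo 4. Scaling and filters gave 32 to 65. Of the 45, 44 were also called by DESeq2 and 39 by limma voom. Direction moved as well: most calls were lower with edgeR and limma voom (692 of 777) and higher with DESeq2 (1722 of 2221).

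The interaction called 0 of the 45 in the reported fit, 3 without a filter, 5 with the covariate, 11 with limma voom and 37 with DESeq2. It could not be fitted within the libraries of like names or the 7 libraries alone.

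Same-numbered CAG-GFP Pilo and Sham libraries did not deviate together (r across genes of 0.0356, -0.0379 and -0.0297). With so few libraries this cannot show whether they were paired, which the sources used here do not state. A replicate block gave 1 call in all 14 libraries and 365 in the 7.

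Among uncalled genes, the Acta2 log2 fold change was -0.158 without CAG-GFP Pilo 4 (up to 3.54 with another library left out), and the Cck log2 fold change -0.406 with the replicate block in 7 libraries. The Gm37376 log2 fold change was -0.104 with upper-quartile factors, -0.239 with the covariate, -0.181 within like names, -0.0535 with limma voom, and -0.165 (without CAG-GFP Pilo 1) to 0.295 with 1 library left out, also below 0 without Sham 3 (-0.0930). The Gm22133 log2 fold change was 0.306 with library totals, 0.0615 with the covariate and 0.166 within like names, and the Tmsb4x log2 fold change -0.0671 and -0.347 in the last 2. The cause of these moves was not tested.

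The median of the ependymal list was -5.14 without CAG-GFP Pilo 3, against 2.01 with it, and that of blood cell markers 1.94 without CAG-GFP Pilo 4, against 9.98. CAG-GFP Pilo 1 and 2 had the fewest counts, while CAG-GFP Pilo 4 had the fewest genes detected (9372). Low values are uncertain in each of these libraries, and which are the least precise was not tested.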

Other observations

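Endothelial and interneuron markers gave no call by edgeR. Of 14 endothelial markers 13 had a positive log2 change, with a median of 5.21, or 3.35 with genes at 0 in Sham set to their bound, and 3 had an unadjusted p under 0.05 (limma voom called 0 and DESeq2 3). No endothelial marker had groups without overlap: Ly6c1, a surface protein of brain endothelium, stood at 8.38, 9.40, 96.5 and 0 CPM against 0 in Sham. Of 7 interneuron markers tested 6 had a positive change and 2 an unadjusted p under 0.05 (limma voom called 0 and DESeq2 2), and Gad1, which makes GABA, stood at 255, 137, 27.8 and 0 CPM against 5.22, 0.0494 and 0 CPM. Cck, a neuropeptide that some interneurons and principal cells make, stood at 35.3, 39.7, 1438 and 374 CPM against 195, 99.4 and 85.8 CPM, and CAG-GFP Pilo 3 and 4 lay above the other libraries.

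Of 10 pericyte and smooth muscle markers 6 had a positive and 2 a negative change (median 1.11, or 0.46 to 1.31 with 1 library left out), and Cspg4, which oligodendrocyte precursors also express, was the 1 called by edgeR, with 1 called by limma voom and 1 by DESeq2. Of 11 CA pyramidal markers 5 were positive and 6 negative, with a median of -0.05 that was 0.77 with library totals only and -0.89 without CAG-GFP Pilo 3. EdgeR called 0 of them, with 0 at an unadjusted p under 0.05, 1 called by limma voom and 0 by DESeq2.

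Genes of migration and of Notch and BMP signalling were mixed and edgeR called 0. At an unadjusted p under 0.05 there were 3 and 6 on these lists, and limma voom called 0 and 4 and DESeq2 1 and 3. Of 31 migration and axon guidance genes tested 21 had a positive change (median 1.14, or 0.34 within the libraries of like column names). Over all genes 58.7% had a positive change and the median was 0.41. Dab1, the adaptor of reelin signalling, stood at 23.3, 47.1, 85.6 and 12.3 CPM against 114, 162 and 137 CPM. Of 29 Notch and BMP genes 18 had a negative change, with a median of -0.39 that was 0.19 with library totals only, -1.73 within the libraries of like column names and -0.05 without CAG-GFP Pilo 4. Id4, an inhibitor of bHLH factors downstream of BMP signals, stood at 64.5, 85.0, 6.27 and 8.69 CPM against 300, 291 and 265 CPM, while Bmp4, a ligand that committed oligodendrocyte precursors express, stood at 57.4, 52.1, 10.2 and 0 CPM with no count in Sham.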
